A study of Caenorhabditis elegans with 6 samples.

Results

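The galectins of Caenorhabditis elegans, encoded by the lec genes, were followed in whole L4 larvae after rab-11.1 was targeted by feeding RNA interference (RNAi). The 10 genes were chosen by name as the lec-1 to lec-6 and lec-8 to lec-11 rows among 46739 listed features, at a time when the RPKM values of both groups were already known. Differences between the groups are therefore given as a description of the members, with no p-value printed for any of them. Statements that a member lay past a threshold of the fit across all features are part of that description. All 10 genes passed the filter on low values, with at least 1 RPKM (reads per kilobase of transcript, corrected for the size of each library) in every library. The table lists 12 lec genes in all, and lec-7 and lec-12, which lie outside the chosen set, are described at the end.

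The rab-11.1 RNAi group held 3 libraries of N2 wild-type worms fed bacteria with the rab-11.1 clone, and the empty vector group held 3 libraries of N2 wild-type worms fed bacteria with the vector alone. RAB-11.1 is a Rab GTPase that marks recycling endosomes. Both groups were L4 larvae kept at 20 °C on NGM agar that held IPTG and carbenicillin and was seeded with HT115 bacteria, with the RNAi food present throughout development. Polyadenylated RNA of whole animals was sequenced, so tissues were not separated, and more cells of a type cannot be told apart from more RNA per cell. The labels call the libraries biological replicates but do not say whether they came from separate cultures, so the spread between them may be in part technical.

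Galectins are lectins that bind glycans with terminal or internal beta-galactosides through a conserved carbohydrate recognition domain. They lack a classical secretion signal, and they act both in the cytosol and, after unconventional export, outside the cell, and some mammalian galectins bind glycans that become exposed on damaged endosomes and lysosomes. In C. elegans the family has a tandem-repeat branch, with a pair of recognition domains in one chain, and a single-domain branch. Among the chosen genes, lec-1 to lec-5 were placed in the first and lec-6 and lec-8 to lec-11 in the second. The genes lec-7 and lec-12 were placed in neither, so statements about a branch cover its chosen members only. Worm galectins also bind a nematode-type unit in which galactose is linked to the core fucose of N-glycans, and glycolipids of the arthro-series.

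The totals to which the RPKM values were scaled were 22946375 to 25107994 in the rab-11.1 RNAi group and 27190567 to 30183162 in the empty vector group. They were recovered from the steps between low RPKM values. Whether the units are single reads or read pairs is not given, and they are called reads here. The 3 values of a group are given throughout in the order of replicates 1, 2 and 3. Targeting was uneven. The rab-11.1 transcript stood at 151, 138 and 633 RPKM under rab-11.1 RNAi, against 411, 398 and 409 RPKM with the empty vector. The library labelled replicate 3 of rab-11.1 RNAi thus goes against its label for the rab-11.1 level, and it is part of every direction given unless stated. The deposited values do not separate rab-11.1 transcript from reads of the bacterial double-stranded RNA. How far the worms' own transcript was lowered is thus not known for any library, and it was not tested. The rab-11.2 gene stood at 1.96, 2.74 and 2.06 RPKM under rab-11.1 RNAi, against 0, 0.136 and 0.200 RPKM with the empty vector. These levels rested on 0 to 47 reads.

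All 5 single-domain members were higher after rab-11.1 RNAi, and no library of one group overlapped the other for any of them. Their ratios of mean RPKM ran from 1.47 for lec-10 to 3.11 for lec-8. Of the 5 tandem-repeat genes, lec-4 and lec-5 were also higher in every rab-11.1 RNAi library, whereas lec-1, lec-2 and lec-3 overlapped between the groups. In the limma fit across all 13833 features tested, 5 of the 10 galectin genes, lec-6, lec-8, lec-9, lec-10 and lec-11, lay past an adjusted p of 0.05 in the higher direction, beside 7.93% of all features. None of the 10 lay past it in the lower direction, beside 1.07% of all features. At an unadjusted p under 0.05, 7 of the 10 lay higher, beside 21.6% of all features, and 0 lay lower, beside 4.93%. In 7 of the 10 the rab-11.1 RNAi libraries all lay above the empty vector libraries, beside 27.4% of all features, and in none did they all lie below, beside 6.53%. The members were picked with this contrast in view, so nothing is read from these counts.

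**Figure D1:**
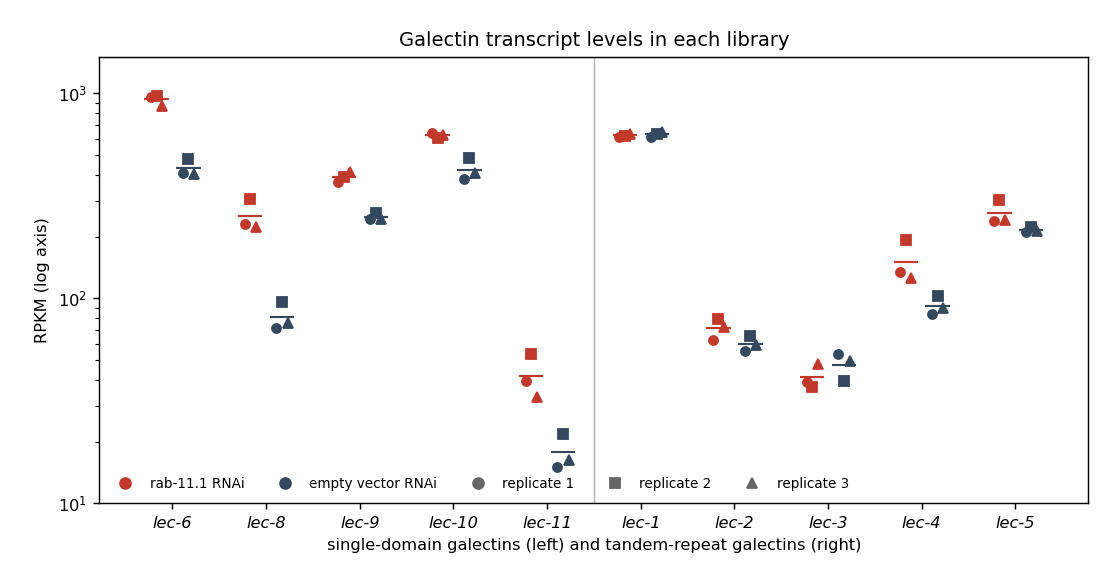
RPKM (log axis) of each galectin gene in each of the 3 rab-11.1 RNAi libraries (red, left) and 3 empty vector libraries (dark, right), with marker shape giving the replicate number and a bar at the mean. The red points lie clear above the dark ones for lec-6, lec-8, lec-9, lec-10 and lec-11, and for lec-4 and lec-5, while those of lec-1 overlap, at means of 623 RPKM after rab-11.1 RNAi and 632 RPKM with the empty vector.

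Among the single-domain genes, lec-8 had the largest difference. Its product binds glycolipids and competes with a Bacillus thuringiensis crystal toxin for them, and it has been linked to host defence against that bacterium. The gene (WBGene00002271, WBcel235 chrX:9850571-9851336, plus strand, protein coding, 3 exons) encodes a chain of 180 residues. Its level was 231, 306 and 222 RPKM under rab-11.1 RNAi, against 71.9, 95.8 and 76.2 RPKM with the empty vector. The groups did not overlap, and replicate 2 was the highest library in each. The means of lec-8 were 253 ± 45.9 RPKM after rab-11.1 RNAi and 81.3 ± 12.8 RPKM with the empty vector (SD, n = 3 each). On the log2(RPKM + 1) scale the difference was 1.62 (SE 0.16), larger than that of 98.8% of all features tested. The lowest rab-11.1 RNAi library held 2.32 times the level of the highest empty vector library.

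The small galectin gene lec-6 was the most abundant member after rab-11.1 RNAi on the RPKM scale. LEC-6 binds beta-galactosides and the galactose-fucose unit of worm N-glycans. The gene (WBGene00002269, WBcel235 chrIII:599510-600366, minus strand, 2 exons) encodes 146 residues. It stood at 963, 969 and 871 RPKM under rab-11.1 RNAi, against 409, 479 and 404 RPKM with the empty vector. All rab-11.1 RNAi libraries were high, including the one labelled replicate 3, which was the lowest of its group. The means were 934 ± 55.1 RPKM after rab-11.1 RNAi and 430.4 ± 42.0 RPKM with the empty vector (SD, n = 3 each), a ratio of 2.17. The log2 difference was 1.12 (SE 0.09), above that of 97.2% of features tested.

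At the other end of the range of levels, lec-11 was the galectin gene with the lowest empty vector level. Its record (WBGene00002274, WBcel235 chrIV:6588184-6590154, minus strand) has 2 transcripts and a coding length of 232 residues. The level was 39.3, 53.4 and 32.8 RPKM under rab-11.1 RNAi, against 14.96, 21.9 and 16.3 RPKM with the empty vector. No library crossed between the groups, but the spread within each was wide, at coefficients of variation of 25.2% after rab-11.1 RNAi and 20.8% with the empty vector. The ratio of means was 2.36 and the log2 difference 1.18 (SE 0.21). It lay past the threshold in 12 of the 15 other settings. An exon of lec-11 overlaps one of dnj-11 on the other strand, and no source used here says whether reads were counted by strand.

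Smaller differences were seen for lec-9 and lec-10. LEC-10 binds beta-galactosides, whereas LEC-9 binds them weakly. The lec-9 gene (WBGene00002272, WBcel235 chrX:17600487-17601503, plus strand, 140 residues) stood at 371, 389 and 414 RPKM under rab-11.1 RNAi, against 243, 261 and 243 RPKM with the empty vector. The groups were far apart relative to their spread, with means of 391.5 ± 21.6 RPKM after rab-11.1 RNAi and 249 ± 10.8 RPKM with the empty vector (SD, n = 3 each) and a log2 difference of 0.65 (SE 0.08). The lec-10 gene (WBGene00002273, WBcel235 chrV:6488203-6489120, minus strand, 192 residues) stood at 643, 607 and 623 RPKM under rab-11.1 RNAi, against 384, 481 and 407 RPKM with the empty vector. Here the rab-11.1 RNAi libraries lay close together, at a coefficient of variation of 2.93%, against 12.01% in the empty vector libraries, where replicate 2 was high. The log2 difference of lec-10 was 0.56 (SE 0.10), the smallest of the single-domain genes. It lay past the threshold in 9 of the 15 other settings and not under median-of-ratios rescaling, where it was 0.43.

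In the tandem-repeat branch, lec-1 had the difference closest to 0. It encodes the best-known worm galectin, whose recognition domains bind N-acetyllactosamine-type sugars. The gene (WBGene00002264, WBcel235 chrII:13195549-13199713, plus strand) has 2 transcripts of 279 and 285 residues. It stood at 613, 620.3 and 635 RPKM under rab-11.1 RNAi, against 614, 637 and 646 RPKM with the empty vector. The groups overlapped, and both varied little, with coefficients of variation of 1.81% after rab-11.1 RNAi and 2.61% with the empty vector. The log2 difference was -0.02 (SE 0.06, 95% confidence interval -0.17 to 0.13). Its sign turned under quantile normalization, to 0.06.

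The tandem-repeat gene with the largest difference was lec-4 (WBGene00002267, WBcel235 chrIII:3771425-3773326, minus strand, 5 exons, 283 residues), which encodes a galactoside-binding galectin. Its level was 135, 193 and 125 RPKM under rab-11.1 RNAi, against 83.7, 103 and 89.5 RPKM with the empty vector. The groups did not overlap, and rab-11.1 RNAi replicate 2 stood well above the other 2 libraries of its group. The log2 difference of 0.69 (SE 0.17) exceeded those of lec-9 and lec-10, yet lec-4, with the larger SE, missed the threshold that they passed. With the replicate number as a block, lec-4 passed it, and its SE fell to 0.10.

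The remaining tandem-repeat genes had smaller differences than lec-4. The lec-5 gene (WBGene00002268, WBcel235 chrII:5839639-5841103, minus strand, 314 residues) stood at 239, 300.4 and 242 RPKM under rab-11.1 RNAi, against 209, 223 and 212 RPKM with the empty vector. The groups did not overlap for lec-5, with rab-11.1 RNAi replicate 2 the highest library, and the log2 difference was 0.27 (SE 0.10). The lec-2 gene (WBGene00002265, WBcel235 chrII:10009608-10016183, minus strand) stood at 62.9, 79.6 and 72.6 RPKM under rab-11.1 RNAi, against 55.2, 65.5 and 59.4 RPKM with the empty vector. Its groups overlapped through 1 library on each side, and the log2 difference was 0.25 (SE 0.11). It has 4 transcripts, with coding lengths from 278 to 1245 residues, and a value per gene does not separate short forms from long ones.

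Besides lec-1, lec-3 had a lower mean after rab-11.1 RNAi. The lec-3 gene (WBGene00002266, WBcel235 chrII:9991112-10000351, plus strand) stood at 39.1, 37.1 and 47.6 RPKM under rab-11.1 RNAi, against 53.5, 39.4 and 49.7 RPKM with the empty vector. The groups overlapped widely, with replicate 2 the lowest library in each. The log2 difference was -0.20 (SE 0.14, 95% confidence interval -0.54 to 0.14). This gene has 9 transcripts that code for 45 to 337 residues, and its exons overlap those of nlt-1 on the other strand.

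**Figure D2:**
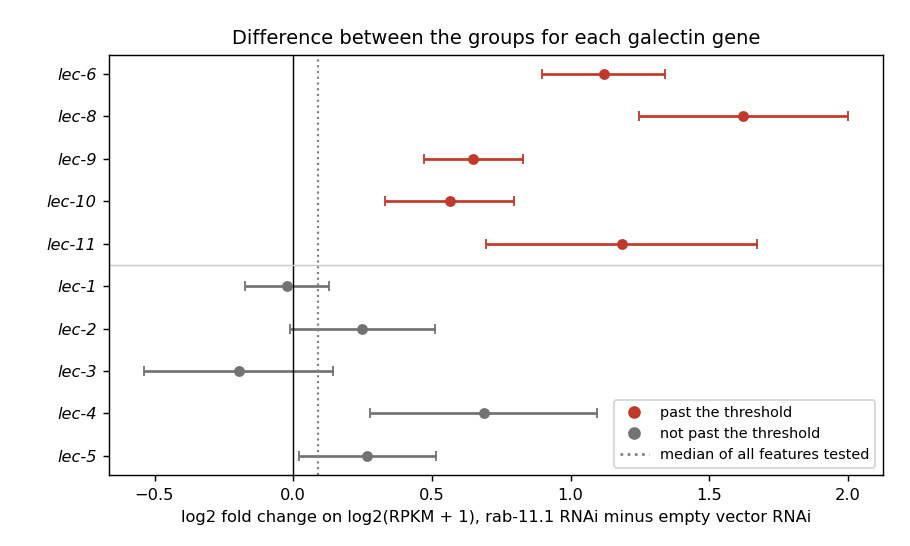
Log2 fold change (rab-11.1 RNAi minus empty vector, on log2(RPKM + 1)) of each galectin gene with its 95% confidence interval from limma, single-domain genes above the line and tandem-repeat genes below it. The single-domain genes lie between 0.56 and 1.62, all past the threshold (red), and the tandem-repeat genes between -0.20 and 0.69, none past it (grey). Of all features tested, 7.93% lay past it in the higher direction. The dotted line is the median of all features tested, 0.09.

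Set against the whole fit, the median log2 difference of the 10 galectin genes was 0.61, and that of all features tested was 0.09. The single-domain genes had a median of 1.12, and 5 of 5 lay past the threshold, beside 7.93% of all features in the higher direction. The genes were picked with the contrast known, so nothing is read from the counts per branch. The tandem-repeat genes had a median of 0.25, and 0 of 5 lay past it by limma, with 2 of 5, lec-4 and lec-5, higher at an unadjusted p under 0.05, which 21.6% of all features were. The branches were not separated by the size of the difference alone, since lec-4 lay between lec-9 and lec-6, and the difference between the branches was not tested. Within each branch the members also differed in size, from 0.56 to 1.62 in the single-domain branch.

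**Figure D3:**
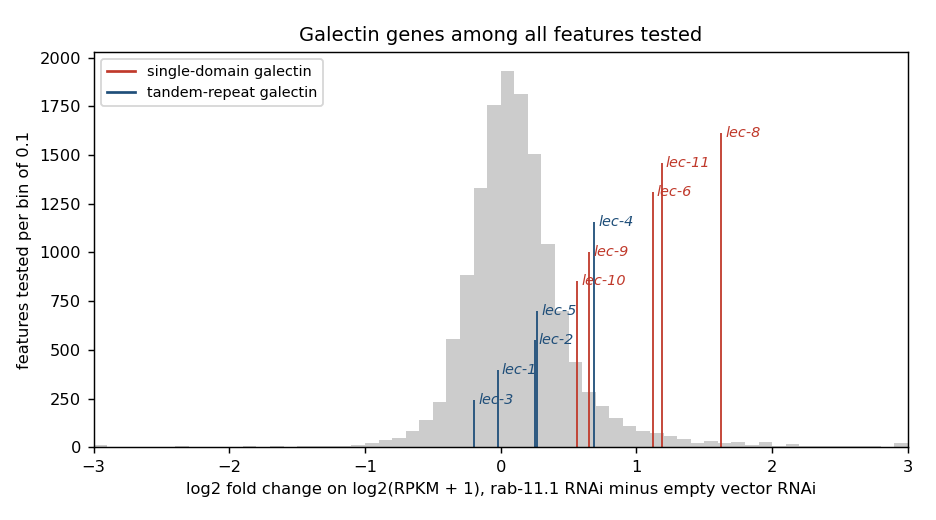
Distribution of the log2 fold change of all 13833 features tested (grey bars, values beyond -3 or 3 placed in the end bins) with the 10 galectin genes marked by lines, whose heights only spread the labels. Single-domain genes (red) lie at 0.56 and above, in the right part of the distribution, and lec-1 and lec-3 (blue) lie left of the median of 0.09.

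The make-up of the galectin transcript pool shifted with these differences. The 10 genes summed to 3336, 3555 and 3286 RPKM under rab-11.1 RNAi, against 2138, 2407 and 2203 RPKM with the empty vector. The sum was 1.51 times as high after rab-11.1 RNAi, and no library overlapped. The single-domain genes held 67.4%, 65.4% and 65.8% of this sum after rab-11.1 RNAi, against 52.5%, 55.6% and 52.0% with the empty vector. Of the difference between the mean sums, 1143 RPKM, lec-6 accounted for 44.1%, lec-10 for 17.5%, lec-8 for 15.03% and lec-9 for 12.5%. These sums and shares depend on the transcript lengths used. With the same reads divided by annotated exon lengths, lec-8 (18.9%) came before lec-10 (12.5%), with lec-6 at 49.8% and lec-9 at 9.97%. At those lengths the single-domain genes held 71.8% to 73.6% of the sum after rab-11.1 RNAi, against 58.5% to 61.9% with the empty vector. The deposited values of lec-6 and lec-8 rest on lengths above the annotated ones. Dividing their reads by annotated lengths may overstate the shares of both genes and of the single-domain genes. The tandem-repeat genes summed to 1147 ± 74.4 RPKM after rab-11.1 RNAi and 1047 ± 27.4 RPKM with the empty vector (SD, n = 3 each). As a share of all RPKM in a library the family made up 0.427% to 0.457% after rab-11.1 RNAi and 0.290% to 0.309% with the empty vector.

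**Figure D4:**
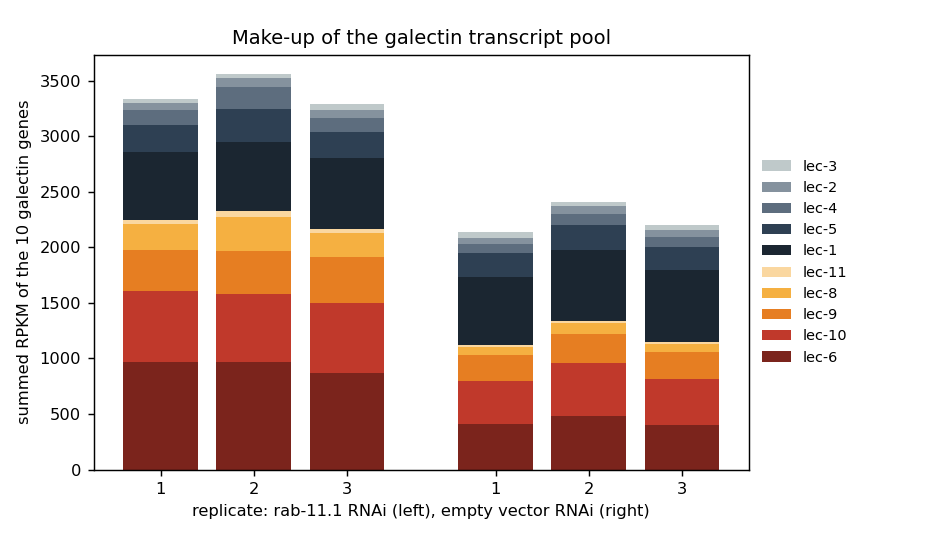
Stacked RPKM of the 10 galectin genes in each library, rab-11.1 RNAi on the left and empty vector on the right, with single-domain genes in warm colours at the bottom and tandem-repeat genes in dark colours above. The rab-11.1 RNAi columns reach 3286 to 3555 RPKM and the empty vector columns 2138 to 2407 RPKM, and the lec-1 band is of like height in all while those of lec-6, lec-8, lec-9 and lec-10 are taller after rab-11.1 RNAi.

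The order of the levels within the family, compared per length on the RPKM scale, differed between the groups. After rab-11.1 RNAi it ran lec-6, lec-10, lec-1, lec-9, lec-5, lec-8, lec-4, lec-2, lec-11 and lec-3, where lec-10 and lec-1, lec-5 and lec-8, and lec-11 and lec-3 overlapped with their neighbour. With the empty vector it ran lec-1, lec-6, lec-10, lec-9, lec-5, lec-4, lec-8, lec-2, lec-3 and lec-11, where lec-6 and lec-10, and lec-4 and lec-8, overlapped. The ratio of lec-6 to lec-1 was 1.57, 1.56 and 1.37 after rab-11.1 RNAi, against 0.666, 0.752 and 0.625 with the empty vector. Galectin transcripts were abundant in worms fed the empty vector, where lec-1 stood above 98.5% of all features tested and even lec-11 above 63.6%. The levels between genes depend on the transcript length used for scaling, which was 784 bases for lec-6 and 1055 for lec-8 as recovered from the values, against 540 and 654 bases of annotated exons. With the same reads divided by annotated lengths, lec-6 averaged 1357 RPKM after rab-11.1 RNAi and 625 RPKM with the empty vector. On that scale lec-1 averaged 530.1 RPKM after rab-11.1 RNAi and 538 RPKM with the empty vector. The recovered 1055 bases of lec-8 exceed its annotated gene span of 766 bases, so its reads were not counted over the annotated exons alone. Values at annotated lengths may thus be too high for lec-6 and lec-8. Which of lec-1 and lec-6 leads with the empty vector is not settled. Ratios between the groups do not depend on the length used for scaling.

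The 10 genes rested on 626 reads (lec-11 in empty vector replicate 3) to 21359 reads (lec-1 in empty vector replicate 2), for a counting error of at most 3.997% of a level. The coefficients of variation between replicates reached 25.2%, in lec-11 after rab-11.1 RNAi, and were as low as 1.81%, in lec-1 after rab-11.1 RNAi, where the counting error of lec-1 reached 0.798%.

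Part of that spread followed the replicate number. In 6 of the 10 galectin genes, lec-2, lec-4, lec-5, lec-6, lec-8 and lec-11, replicate 2 was the highest library of both groups, as in 23.9% of the features tested. For lec-8 the ratio within a replicate number was 3.22, 3.19 and 2.92 for numbers 1, 2 and 3, a narrower range than that of its levels. The same ratios were 2.36, 2.02 and 2.16 for lec-6, 2.63, 2.44 and 2.01 for lec-11, 1.53, 1.49 and 1.70 for lec-9, and 1.68, 1.26 and 1.53 for lec-10. All 15 ratios of the single-domain genes were above 1, as they must be where the groups do not overlap, so this adds nothing to that result. With the replicate number as a block, 7 galectin genes lay past the threshold, lec-2 and lec-4 joining the other 5, beside 16.5% of all features in the higher direction. In the block fit without both replicate 2 libraries 6 did, lec-4 and the 5 single-domain genes, beside 14.9% of all features.

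**Figure D5:**
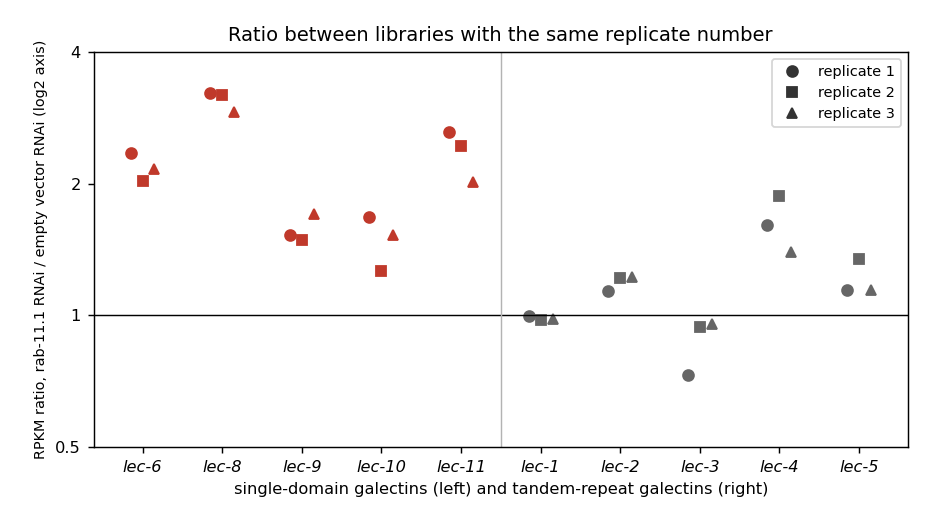
Ratio of RPKM in rab-11.1 RNAi to empty vector libraries of the same replicate number (log2 axis) for each galectin gene, single-domain genes in red on the left and tandem-repeat genes in grey on the right. All red points lie above 1, between 1.26 and 3.22, which the lack of overlap between the groups fixes in advance. Those of lec-1 lie between 0.974 and 0.998.

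In the library labelled replicate 3 of rab-11.1 RNAi the rab-11.1 level was not low. That library held the lowest level of its group for lec-6, lec-8 and lec-11, the highest for lec-9 and the middle one for lec-10. Each of these levels lay above every empty vector library. Without that library the ratios of means were 2.24 for lec-6, 3.30 for lec-8, 2.62 for lec-11, 1.53 for lec-9 and 1.47 for lec-10. In the fit without it 4 galectin genes lay past the threshold, lec-6, lec-8, lec-9 and lec-11, beside 4.17% of all features in the higher direction. In the block fit on replicates 1 and 2 alone, 4 did, lec-4, lec-6, lec-8 and lec-11, beside 5.65% of all features. There lec-9 (0.59) and lec-10 (0.54) missed it with log2 differences near those of the fit with all libraries. The block fits without both libraries of a replicate number were chosen after the data were seen.

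Tissue and stage markers moved along with the groups in part, and their part in the galectin differences was not tested. Of all features tested, 27.4% were higher and 6.53% lower in every rab-11.1 RNAi library, the shares to set beside the marker counts below. Neuron markers (8 of 8 listed) summed to 348 to 495 RPKM after rab-11.1 RNAi and 252 to 294 RPKM with the empty vector. All 8 had a positive log2 fold change, with 4 higher in every rab-11.1 RNAi library. Body wall muscle markers (8 of 8) summed to 3887 to 4262 RPKM after rab-11.1 RNAi and 4530 to 4728 RPKM with the empty vector. Of these 8, 1 had a positive log2 fold change, and 5 were lower in every rab-11.1 RNAi library. Pharynx markers (8 of 8) summed to 166 to 177 RPKM after rab-11.1 RNAi and 178 to 206 RPKM with the empty vector. The sums of these 3 tissues did not overlap between the groups, but the pharynx genes were split, with 2 higher and 2 lower in every rab-11.1 RNAi library among the 6 tested and a median log2 fold change of 0.06. The sums of the next 3 tissues overlapped. Intestine markers (9 of 10 listed) summed to 3978 to 5034 RPKM after rab-11.1 RNAi and 4725 to 5608 RPKM with the empty vector. Epidermis markers (10 of 10) summed to 2666 to 3560.1 RPKM after rab-11.1 RNAi and 2205 to 3657 RPKM with the empty vector, and 9 of the 10 had a positive log2 fold change, with 4 higher in every rab-11.1 RNAi library. Germline markers (8 of 8) summed to 252 to 381 RPKM after rab-11.1 RNAi and 320.3 to 486 RPKM with the empty vector. Adult yolk genes (6 of 6) summed to 176, 171 and 268 RPKM under rab-11.1 RNAi, against 1189.9, 252 and 1110.5 RPKM with the empty vector. Their median log2 fold change was -2.91, and 3 of 6 lay past the limma threshold in the lower direction, beside 1.07% of all features. Adult cuticle collagens (4 of 4) summed to 22.3, 5.73 and 62.3 RPKM under rab-11.1 RNAi, against 396, 69.1 and 331 RPKM with the empty vector, without overlap. Their median log2 fold change was -3.33, and 3 of 4 lay past the limma threshold in the lower direction. Sperm genes (8 of 8) were low in replicate 2 of both groups, at 114.99 RPKM after rab-11.1 RNAi and 126 RPKM with the empty vector, against 227 to 327 RPKM in the other 4 libraries. No marker in these lists was at 0 in all libraries. Replicate 2, the library with the highest lec-8 level in each group, was thus also the one with the lowest yolk, adult cuticle and sperm sums in each group.

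Of the lec genes outside the set, lec-12 was tested and lec-7 was not. The lec-12 gene (WBGene00017080, WBcel235 chrV:204382-209755, plus strand) stood at 47.8, 45.8 and 50.2 RPKM under rab-11.1 RNAi, against 39.1, 35.8 and 33.7 RPKM with the empty vector. It rose, with a log2 difference of 0.40 (SE 0.08) and a limma adjusted p of 0.0328, and the groups did not overlap. This call ended in 10 of the 15 other settings. Its adjusted p ran from 0.0237 to 0.14 over all settings, and without the library labelled replicate 3 of rab-11.1 RNAi the adjusted p was 0.0879. The lec-7 gene lies 704 bases downstream of lec-8 on the same strand of chromosome X (WBGene00002270, WBcel235 chrX:9852041-9853002). It was below 1 RPKM in all but replicate 2 of each group, at 0.974, 1.496 and 0.779 RPKM under rab-11.1 RNAi, against 0.694, 1.44 and 0.565 RPKM with the empty vector. These levels rested on 11 to 31 reads, for a counting error of up to 30.2%, and overlapped between the groups. At this depth lec-7 cannot be set against its neighbour lec-8.

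Enzymes that build the sugars bound by galectins were taken as the surrounding pathway, in a list of 17 genes of N-glycan, fucose and glycolipid synthesis. All 17 were tested, and 0 rose and 0 fell by limma, beside 7.93% and 1.07% of all features. At an unadjusted p under 0.05, 1 was higher and 1 lower, beside 21.6% and 4.93% of all features. The groups did not overlap in 7 of the 17, of which 6 were higher and 1 was lower, beside 27.4% and 6.53% of all features. Their median log2 fold change was 0.07, beside 0.09 for all features tested. The 3 genes with the largest absolute differences were galt-1, bre-3 and fut-6. The galactosyltransferase gene galt-1, whose enzyme adds galactose to the core fucose of N-glycans, stood at 3.45, 3.49 and 3.42 RPKM under rab-11.1 RNAi, against 4.58, 5.23 and 5.71 RPKM with the empty vector. It was lower in every rab-11.1 RNAi library, with a log2 difference of -0.47 (SE 0.14) and a limma adjusted p of 0.0838. With the replicate number as a block the adjusted p was 0.0439, but with the block and without both replicate 3 libraries it was 0.184. The glycolipid glycosyltransferase gene bre-3 had a log2 difference of 0.28 (SE 0.10, limma adjusted p of 0.132) and the fucosyltransferase gene fut-6 one of 0.25 (SE 0.15, adjusted p of 0.329).

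Across the 6 libraries, the 5 features whose log2(RPKM + 1) followed lec-8 most closely were F17C11.11, the autophagy receptor gene sqst-1, C05D2.10, C49G7.10 and the mevalonate kinase gene mvk-1, at Pearson r of 0.999 to 1.000. The 6 points share their libraries and fall into 2 groups, and these r values are a description. An r does not measure the size of a difference, and the 5 features varied in it. The gene sqst-1 stood at 137, 184 and 124 RPKM under rab-11.1 RNAi, against 32.2, 42.5 and 33.9 RPKM with the empty vector. Mean levels after rab-11.1 RNAi and with the empty vector were 195 and 29.1 RPKM for F17C11.11 and 103 and 9.25 RPKM for C49G7.10. They were closer for C05D2.10, at 27.2 and 21.6 RPKM, and for mvk-1, at 67.0 and 58.8 RPKM. Among the galectin genes, lec-6 followed lec-8 most closely, with r = 0.990, and 141 features had a higher r. Next came lec-11 (0.983), lec-9 (0.970), lec-10 (0.955) and lec-4 (0.944). The r of lec-1 and lec-3 was negative, at -0.35 and -0.66, but the levels of both genes overlapped between the groups.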

How the data were processed

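The 10 members and all gene lists were chosen with earlier results of these data known. The authors deposited RPKM values of 46739 features in 6 libraries, from paired reads per the file headers and on the WBcel235 assembly, per the submitters' processing notes. Which read mapper, counting program, gene models or strand setting were used is not given in the sources used here. Names were matched to Ensembl release 115 of WBcel235, which gave coordinates and coding lengths. Depths were recovered as the library size at which the largest number of features below 3 RPKM came out at 1 to 5 whole reads. That number was 437 to 473 features per library. The reads of each named gene were taken at the shortest length from 100 to 20000 bases giving whole reads in all 6 libraries within 0.002 reads. With wrong depths no length did so for any named gene. Counting errors cover counting alone.

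The fit across all features used limma 3.58.1 (R 4.3.3) on log2(RPKM + 1) of every feature that reached 1 RPKM in at least 3 libraries, with group as its only term, a trended and robust eBayes, two-sided p-values and adjustment by Benjamini-Hochberg over all 13833 features, with a threshold of 0.05. The pseudocount of 1 understates changes of low genes. An exact permutation test of 3 against 3 libraries cannot go below 0.1 and was not used. The script was tested on simulated data. Deviations from group means across features correlated at 0.40, 0.62 and 0.35 for libraries sharing a replicate number (1, 2 and 3), and the numbers were taken to pair them. However, rab-11.1 RNAi replicate 3 and empty vector replicate 1 correlated at 0.46. The text names all members, lec-7, lec-12, rab-11.1, rab-11.2, the 3 glycan genes with the largest differences, and the 5 features most like lec-8. The alternatives were other pseudocounts, no filter, rescaling, no trend, the block and leaving out libraries.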

Additional observations from a re-analysis of the deposited data

How the results depend on the processing

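The directions of lec-2 to lec-6 and lec-8 to lec-11 held under all 15 alternatives, and lec-6 and lec-8 stayed past the threshold in all, with log2 fold changes of 0.99 to 1.198 and 1.48 to 1.75. The difference of lec-1 turned to 0.0571 under quantile normalization. The call of lec-9 ended in 1 setting, that of lec-11 in 3 and that of lec-10 in 6, among them median-of-ratios rescaling (log2 fold change 0.43). The cause was not tested. The galectin genes past the threshold numbered 3 to 5 when 1 library was left out, beside 264 to 938 of all features in the higher direction. They numbered 3 (lec-6, lec-8 and lec-9) in the fits that lacked replicate 1 of rab-11.1 RNAi or replicate 1 or 3 of the empty vector. In those fits 362 of 13585, 320 of 13698 and 264 of 13711 features lay higher, in that order. No galectin gene lay past the threshold in the lower direction in any setting.

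Over all features, 1097 lay higher and 148 lower, so that 88.1% of calls were higher. Median-of-ratios rescaling moved the median log2 fold change from 0.09 to -0.02, with 553 higher and 284 lower (66.1% higher), and under quantile normalization it was -0.04, with 524 features higher and 249 lower (67.8% higher). Relative to that median, lec-6 and lec-8 stayed at 1.01 and 1.52 or more under both. With the replicate block, 2288 lay higher and 618 lower, and with both replicate 2 libraries also left out 2005 and 609, a setting chosen after the data were seen, as was the one without both replicate 3 libraries. With no filter 97 and with no trend 96 lay lower. Leaving out 1 library gave 264 to 938 higher and 20 to 125 lower. The block also brought the calls of lec-2, lec-4 and galt-1 and ended none of the galectin calls. The fits with a library left out have fewer samples. Depth limits lec-7, at 11 to 31 reads.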

Other observations

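Values at the annotated exon lengths change the comparison of levels between galectin genes without touching the ratios between groups. On that scale lec-8 averaged 408 RPKM after rab-11.1 RNAi and 131 RPKM with the empty vector, where the deposited values gave 253 RPKM after rab-11.1 RNAi and 81.3 RPKM with the empty vector. The length recovered from the deposited values was 1.61 times the annotated one for lec-8 and 1.45 times for lec-6, whereas for the other 8 galectin genes it was 0.840 to 1.03 times. For lec-8 it exceeded even the annotated gene span, at 1055 against 766 bases. Reads from outside the annotated exons may thus be included, and values at annotated lengths may be too high for lec-6 and lec-8.

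On chromosome II, lec-3 and lec-2 lie 9256 bases apart, and neither lay past the threshold.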
